A study of Mus musculus with 12 samples.

Results

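Genes of the BMP and TGF-beta pathway were examined for peaks in chromatin immunoprecipitation sequencing (ChIP-seq) with an antibody against MACF1, a large cytoskeletal protein that links actin filaments to microtubules. The 31 genes comprised 9 ligand genes, 10 receptor genes, 8 Smad genes and 4 genes for secreted antagonists or a latency protein, out of 21887 protein-coding genes. They were chosen by name from the pathway, with earlier results of these data known. A gene was counted when a peak overlapped its RefSeq span on GRCm38 or the 5 kb around it. All libraries came from MC3T3-E1, a mouse osteoblast line. Cells with MACF1 knockdown gave 3 ChIP libraries, labelled 1, 2 and size3, and control cells gave 3 with the same labels. Each was set against its own input library. The labels name neither the knockdown reagent, the control treatment nor the meaning of size3, and separate cultures are not stated, so the p-values cover only the spread among these libraries. A binding assay of DNA does not measure expression, so neither the knockdown nor osteoblast markers could be checked here.

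BMPs and TGF-betas are secreted dimers that bind pairs of type II and type I serine/threonine kinase receptors. The activated type I receptor phosphorylates receptor-regulated Smads, which join the common Smad4 and enter the nucleus, while inhibitory Smads and secreted antagonists limit the signal. In bone, BMPs drive the commitment and maturation of osteoblasts, and TGF-betas stored in the matrix in latent form are released when bone is resorbed.

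Knockdown libraries held 21398, 4513 and 17592 peaks for labels 1, 2 and size3, from 18454330, 5575205 and 8175173 ChIP reads after duplicate removal. Control libraries held 772, 198 and 2196 peaks, from 26196138, 33085606 and 10698067 reads. The redundant rate, the share of reads removed as duplicates, was 0.51, 0.65 and 0.02 in the knockdown libraries and 0.25, 0.16 and 0.01 in the control libraries. The part of depth, duplicates and list length in the results below was not tested. Fold enrichment, read number and false discovery rate of a peak are the authors' values for that peak in its own list.

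The RefSeq table of GRCm38.p6 gave promoter windows, from 250 bases before to 50 bases after a transcription start, for 21 of the 31 genes. A peak overlapped such a window in 7 of them. Their windows are shown because, among genes with a window, they are the transcription starts under a peak. Peaks of knockdown 1 overlapped those of Acvr1, Bmpr1a, Smad1, Smad9, Chrd and Ltbp3. Peaks of knockdown size3 overlapped that of Acvr1 also, and an internal start of Bmpr1b. Sequences run 5′ to 3′ along the strand of the gene. Capitals mark 2 Smad-type elements where present, the Smad box CAGAC or its reverse complement GTCTG, and the GC-rich element GGCGCC.
Acvr1, chr2:58566779-58567078, minus strand: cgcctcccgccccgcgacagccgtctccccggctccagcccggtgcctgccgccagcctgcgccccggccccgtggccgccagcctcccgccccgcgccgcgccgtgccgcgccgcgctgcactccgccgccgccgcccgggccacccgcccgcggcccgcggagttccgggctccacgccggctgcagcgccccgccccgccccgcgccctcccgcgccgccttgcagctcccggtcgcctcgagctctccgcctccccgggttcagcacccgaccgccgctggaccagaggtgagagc
Bmpr1a, chr14:34502497-34502796, minus strand: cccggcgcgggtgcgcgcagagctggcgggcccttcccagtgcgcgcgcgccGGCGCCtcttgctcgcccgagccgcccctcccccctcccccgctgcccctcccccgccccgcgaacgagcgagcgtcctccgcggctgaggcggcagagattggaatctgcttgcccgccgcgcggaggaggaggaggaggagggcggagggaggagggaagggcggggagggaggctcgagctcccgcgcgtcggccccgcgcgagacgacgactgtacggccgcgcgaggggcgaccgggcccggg
Bmpr1b, chr3:141931371-141931670, minus strand: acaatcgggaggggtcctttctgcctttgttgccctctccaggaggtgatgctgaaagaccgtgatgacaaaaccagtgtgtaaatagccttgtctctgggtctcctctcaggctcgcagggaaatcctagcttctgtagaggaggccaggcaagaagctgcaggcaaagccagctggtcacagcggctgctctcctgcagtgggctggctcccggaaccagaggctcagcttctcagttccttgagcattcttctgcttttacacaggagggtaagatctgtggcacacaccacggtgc
Smad1, chr8:79399379-79399678, minus strand: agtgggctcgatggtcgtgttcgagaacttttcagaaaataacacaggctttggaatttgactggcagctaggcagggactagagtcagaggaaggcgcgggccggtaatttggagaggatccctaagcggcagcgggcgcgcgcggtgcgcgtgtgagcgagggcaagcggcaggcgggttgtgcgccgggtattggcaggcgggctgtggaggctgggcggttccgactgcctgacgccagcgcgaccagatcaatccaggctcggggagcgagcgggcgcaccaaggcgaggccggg
Smad9, chr3:54755332-54755631, plus strand: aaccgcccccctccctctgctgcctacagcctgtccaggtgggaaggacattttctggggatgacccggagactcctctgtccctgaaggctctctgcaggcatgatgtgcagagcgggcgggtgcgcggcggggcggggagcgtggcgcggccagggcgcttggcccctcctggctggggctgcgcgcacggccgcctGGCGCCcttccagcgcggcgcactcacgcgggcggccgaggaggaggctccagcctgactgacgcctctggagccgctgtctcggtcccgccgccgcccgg
Chrd, chr16:20732877-20733176, plus strand: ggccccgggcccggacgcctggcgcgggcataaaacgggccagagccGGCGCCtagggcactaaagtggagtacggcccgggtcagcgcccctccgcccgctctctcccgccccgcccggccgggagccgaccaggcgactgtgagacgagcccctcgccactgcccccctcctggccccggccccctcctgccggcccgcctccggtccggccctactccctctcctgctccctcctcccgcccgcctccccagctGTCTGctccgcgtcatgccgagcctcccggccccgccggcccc
Ltbp3, chr19:5740650-5740949, plus strand: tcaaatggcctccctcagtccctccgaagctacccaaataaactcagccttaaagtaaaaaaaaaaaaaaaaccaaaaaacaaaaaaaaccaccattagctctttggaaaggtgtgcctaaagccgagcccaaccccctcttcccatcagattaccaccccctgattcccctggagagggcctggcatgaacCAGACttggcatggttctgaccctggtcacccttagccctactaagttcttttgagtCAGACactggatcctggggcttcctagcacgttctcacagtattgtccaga

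Most of these windows were rich in G and C. The share of G and C was 83.7% at Acvr1, 79.3% at Bmpr1a, 78.3% at Chrd, 73.7% at Smad9 and 65% at Smad1, with 51, 48, 34, 31 and 31 CpG dinucleotides in that order. Ltbp3 (48.0%, 3 CpG) and the internal start of Bmpr1b (55.7%, 6 CpG) stood apart. Over 8 member windows with a peak, 2 of them overlapping windows of Bmpr1b, the median share was 69.3%, against 66.7% over the 18 member windows without one and 56.3% over all 21263 windows. All windows overlapped by a knockdown 1 peak, 3403 in number, had a median of 64.0%. The member windows were thus GC-rich with or without a peak.

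Motifs were counted on both strands of the windows, as a description of letters and not of sites. The Smad box CAGAC was in 13 of 26 member windows (50.0%), against 48.4% of all windows. GGCGCC was in 8 of 26 (30.8%), against 15.3% of all windows. The 26 windows came from 21 genes, and overlapping windows of Smad5 both held GGCGCC. The part of the higher share of G and C in the member windows was not tested. The E-box CANNTG was in 13 of 26 (50.0%), against 69.0%, and its form CAGCTG, which CANNTG includes, in 4 (15.4%), against 15.6%. The TCF/LEF core CTTTGA was in 0 of 26, against 14.4%. The E2F-like letters GCGGGAA and GCGCGAA were each in 1 of 26 (3.85%), against 5.95% and 2.11%. Among the 7 printed windows, the Smad box occurred in those of Ltbp3 and Chrd, and GGCGCC in those of Bmpr1a, Smad9 and Chrd.

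Peaks overlapped the promoter window of 6 of the 21 genes in knockdown 1, where 16.7% of 17492 genes with a window had such a peak, of 2 in knockdown size3 (8.21% of genes), and of 0 in knockdown 2 (0.0286%). No control library had a peak on a member's window. In control 1, 2 and size3 the share over all genes was 0%, 0.00572% and 0.223%.

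The pathway genes had peaks in the knockdown libraries and almost none in the control libraries. MACF1, the target of the antibody, is thus the protein knocked down in the cells with peaks. Whether the peaks mark MACF1 on DNA was not tested. A peak lay in or near 25, 4 and 14 of the 31 genes in knockdown 1, 2 and size3, and 0, 0 and 2 in control 1, 2 and size3. Every knockdown value was above every control value. Over all protein-coding genes, 43.7%, 7.95% and 35.5% had a peak in knockdown 1, 2 and size3, and 1.38%, 0.315% and 5.49% in control 1, 2 and size3. Set against these, the members' shares of 80.6%, 12.9% and 45.2% were above the share of all genes in each knockdown library, most in knockdown 1, and the 6.45% of control size3 was near it. The mean was 14.3 ± 10.5 genes in knockdown and 0.667 ± 1.15 in control libraries (SD, n = 3 each), a difference of 13.7 genes (exact two-sided permutation p = 0.1, the smallest that 20 assignments allow; Benjamini-Hochberg adjusted p = 0.1 over 3 tests).

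Within a label the difference was 25 genes for label 1, 4 for label 2 and 12 for size3. It was 8.33 genes without knockdown 1 (exact permutation p = 0.1). When each list was reduced to its 198 best-scoring peaks, the length of the shortest list, 1 peak was left at 1 gene, Tgfbr2 in knockdown size3, and the difference was 0.33 genes (exact permutation p = 1). The full knockdown lists held 1.11 to 2.01 member peaks per 1000, so lists this short hold few or none. This alternative therefore cannot show whether the difference depends on list length.

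**Figure D1:**
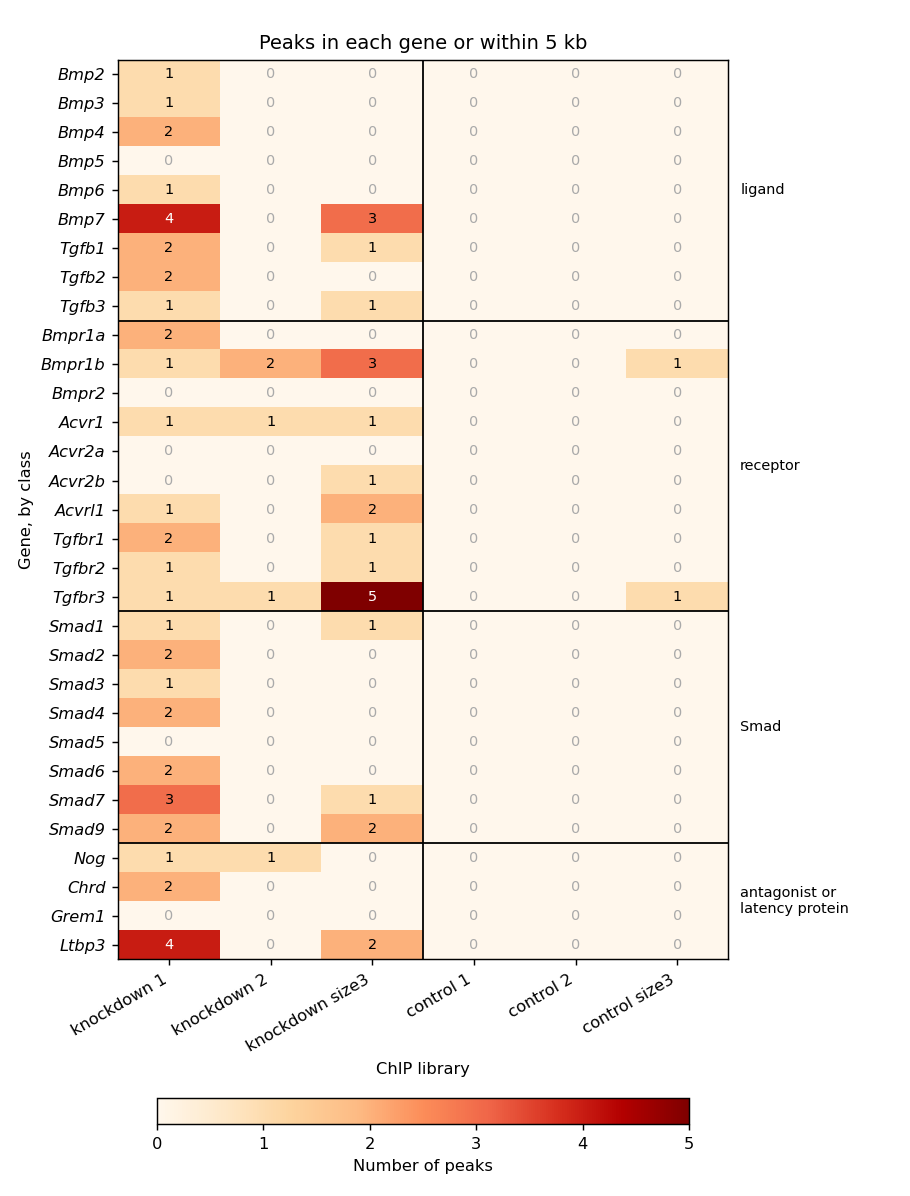
Number of peaks overlapping each of the 31 genes or the 5 kb around it (rows, by class) in each ChIP library (columns, knockdown left of control); darker cells hold more peaks. Knockdown 1 has peaks at 25 genes and knockdown size3 at 14, while the only control cells above 0 are those of Bmpr1b and Tgfbr3 in control size3.

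In all, 43, 5 and 25 peaks lay at members in knockdown 1, 2 and size3, and 0, 0 and 2 in control 1, 2 and size3. The groups did not overlap, and neither did the whole lists. Those held 21398, 4513 and 17592 peaks in knockdown 1, 2 and size3. Control 1, 2 and size3 held 772, 198 and 2196. Together, 26 of 31 members had a peak in any knockdown library (83.9%, beside 57.7% of all genes) and 2 of 31 in any control library (6.45%, beside 6.7%). On the log2(number + 1) scale the difference of means was 3.72, a 13.2-fold difference of geometric means of number + 1 (exact permutation p = 0.1, adjusted p = 0.1). The log2 difference was 3.11 without knockdown 1 and 4.55 without knockdown 2 (exact permutation p = 0.1 for each).

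The share of a list that fell at the members takes out its length. It was 2.01 per 1000 peaks in knockdown 1 (95% Wilson interval 1.49 to 2.71), 1.11 in knockdown 2 (0.473 to 2.59) and 1.42 in knockdown size3 (0.963 to 2.10). It was 0.911 in control size3 (0.250 to 3.31), where 2 peaks were counted. Control 1 and control 2 had 0 of 772 and 0 of 198 peaks there, which allows up to 3.89 and 15.2 per 1000, so a share as high as in any knockdown library would not have been detectable in these short lists. Means were 1.51 ± 0.458 in knockdown and 0.304 ± 0.526 in control libraries (SD, n = 3 each), a difference of 1.21 per 1000 (exact permutation p = 0.1, adjusted p = 0.1). Within size3, the only label with peaks at members in both groups, the difference was 0.51 per 1000, and the intervals of both libraries overlapped.

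Long genes take more peaks, and the members were longer than most genes, with a median span of 61.7 kb, against 17.2 kb over all protein-coding genes. Per Mb of gene and flank, members held 17.1 peaks in knockdown 1, 1.99 in knockdown 2 and 9.96 in knockdown size3, beside 12.5, 1.77 and 10.1 over all genes in the same libraries. Control size3 had 0.797 per Mb at members and 1.10 over all genes. The density at the members was thus close to that of all genes in knockdown size3 and knockdown 2, and above it in knockdown 1. By length, 7 of 8 members under 20 kb had a peak in knockdown 1 (31% of all such genes), 13 of 16 from 20 to 100 kb (52.7%) and 5 of 7 of 100 kb or more (77.6%). In knockdown size3 the counts were 3 of 8 (23.6%), 8 of 16 (43.5%) and 3 of 7 (68.1%). In knockdown 2 they were 1 of 8 (2.14%), 0 of 16 (9.68%) and 3 of 7 (30.8%). The classes of length were chosen after seeing the data.

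**Figure D2:**
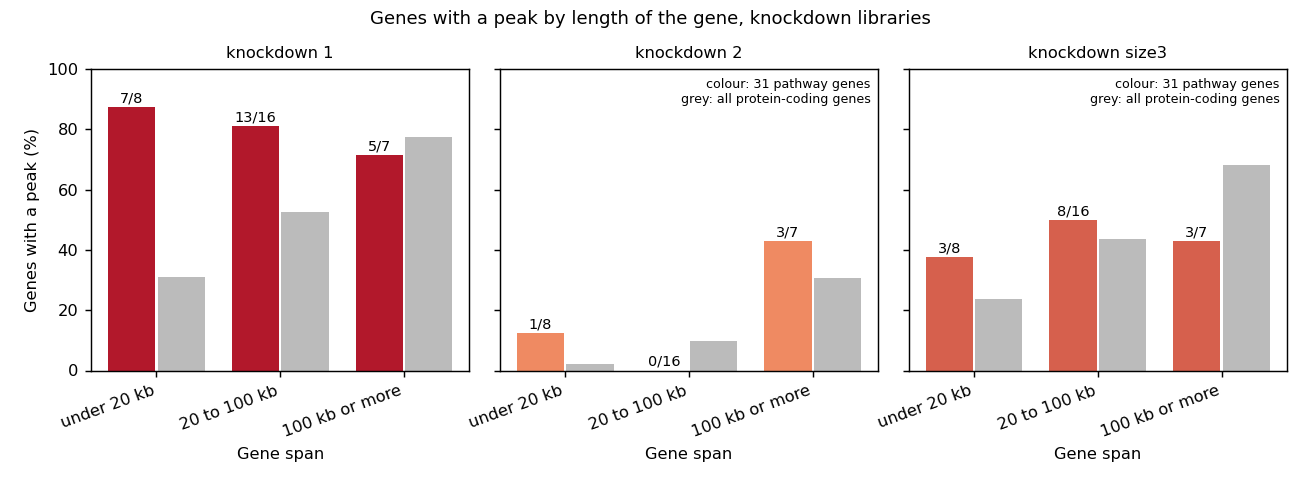
Share of genes with a peak in the gene or within 5 kb (vertical axis, percent) by gene span, for the 31 pathway genes (colour, with counts) and all protein-coding genes (grey), in the 3 knockdown libraries. In knockdown 1 the pathway genes lie above all genes in the shorter 2 classes, at 7 of 8 and 13 of 16, and below them among genes of 100 kb or more, at 5 of 7 against 77.6%.

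By class, in knockdown 1 a peak was found at 8 of 9 ligand genes, 7 of 10 receptor genes, 7 of 8 Smad genes and 3 of 4 antagonist and latency genes, beside 43.7% of all protein-coding genes. In knockdown size3 the counts were 3 of 9, 7 of 10, 3 of 8 and 1 of 4, beside 35.5% of all genes, so that receptor genes were above that share and the other classes near or below it. Knockdown 2 had a peak at 3 of 10 receptor genes and 1 of 4 antagonist and latency genes, and at no ligand or Smad gene, beside 7.95% of all genes. Control size3 had a peak at 2 of 10 receptor genes and at no gene of the other classes, beside 5.49%. Receptor genes included 4 of the 7 members of 100 kb or more. No difference between classes was tested.

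**Figure D3:**
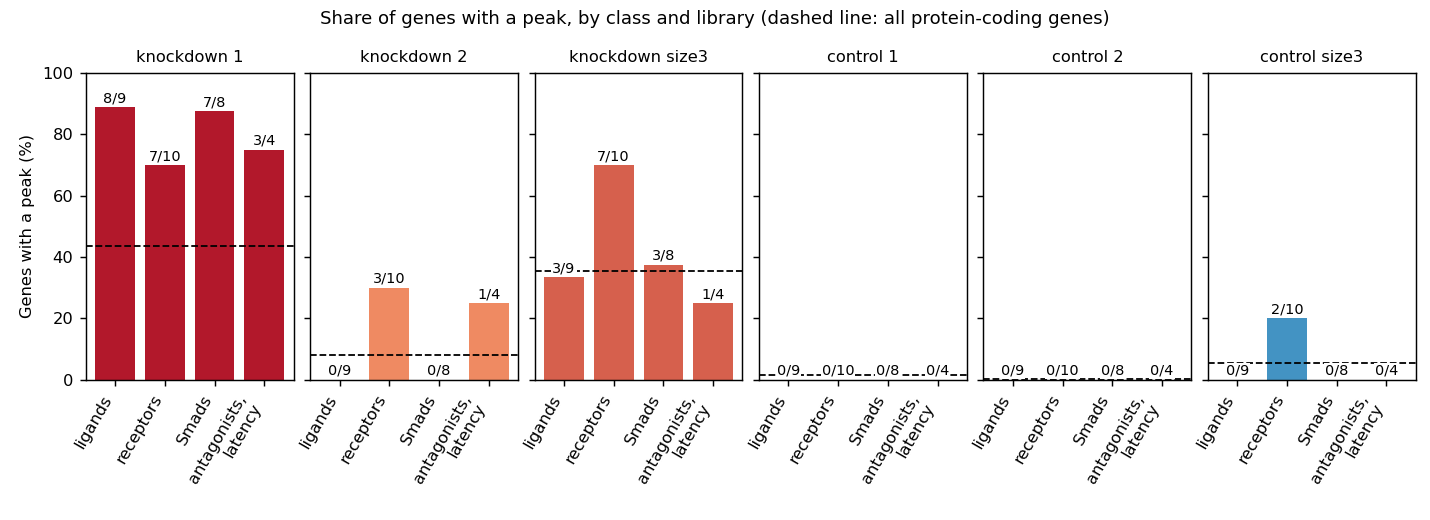
Share of the genes of each class with a peak in the gene or within 5 kb (vertical axis, percent, with counts above the bars) in each ChIP library, knockdown libraries left of control libraries; dashed lines give the share of all protein-coding genes in that library. Receptor genes reach 7 of 10 in knockdown 1 and in knockdown size3, and are the only class with a bar in a control library.

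Consensus regions, those that 2 or more libraries of the same group shared, were present at 5 members in knockdown, Acvr1, Bmpr1b, Tgfb1, Ltbp3 and Nog (16.1%, beside 8.52% of all protein-coding genes). No member had a control consensus region (0.0640% of all genes). Leaving out knockdown 1 left 0 such members, leaving out knockdown size3 left 1, and leaving out knockdown 2 left 4. By length, the 5 were 3 of 8 members under 20 kb (5.85% of all such genes), 0 of 16 from 20 to 100 kb (9.74%) and 2 of 7 of 100 kb or more (17.7%). A peak in both knockdown 1 and knockdown size3 was present at 13 members, and in 4 of these, Acvr1, Bmpr1b, Tgfb1 and Ltbp3, a peak of one overlapped a peak of the other. Among all 5132 genes with a peak in both libraries, 35.4% shared a region. In the other 9 members the closest peaks of the 2 libraries lay 1657 to 65498 bp apart, with a median of 13297 bp.

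The ligand genes carried peaks mainly in knockdown 1. Bmp7, a BMP that acts in kidney and skeletal development, had 4 peaks in knockdown 1 and 3 in knockdown size3, all with the summit inside its 72.3 kb, and none in knockdown 2 or the 3 control libraries. The knockdown 1 peaks had fold enrichments of 2.81, 3.50, 4.95 and 3.98, the last at chr2:172937287-172941195, where it spans the boundary of the gene, with 278 reads. Those of knockdown size3 had 5.15, 5.48 and 4.45, with 24, 53 and 45 reads. The 2 libraries marked different places in the gene, with the closest peaks 4099 bp apart.

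Tgfb1, the TGF-beta most abundant in bone matrix, had a region near its upper end that was called in 2 knockdown libraries. The peak was at chr7:25703555-25705481 in knockdown 1, with a fold enrichment of 4.02 and 83 reads, and at chr7:25703361-25704256 in knockdown size3, with 5.67 and 24 reads. The summits lay 625 bp apart, 17154 and 16529 bp from the transcription start at the lower end. A second knockdown 1 peak, chr7:25709535-25716683, 7149 bp wide, began 4458 bp beyond Tgfb1 and overlapped Ccdc97. Tgfb3, which acts in palate formation, had 1 peak in knockdown 1 (fold enrichment 4.32, 120 reads) and 1 in knockdown size3 (7.37, 13 reads), 13297 bp apart. Knockdown 2 and all control libraries had none at either gene.

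Of the ligand genes with peaks in 1 library, each in knockdown 1, Bmp4 had the best fold enrichment. Bmp4, a BMP of early mesoderm and limb patterning, had a peak inside the gene (7.21, 44 reads) and one in the flank (5.20, 32 reads). Tgfb2 had 2 peaks, with fold enrichments of 5.86 and 5.27 and 19 and 27 reads. Bmp3, a BMP that opposes osteogenic BMPs, had a peak at chr5:98854341-98856052 over the lower end of its span, with 5.54 and 127 reads. It held the best peak score of any member in any library, 166, the score being the p-value as negative log10 times 10. Bmp2 and Bmp6, with 1 peak each, had lower folds (2.83 and 4.69), and Bmp5 had no peak.

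The receptor genes held the members with peaks in most libraries, Acvr1, Bmpr1b and Tgfbr3, each of 100 kb or more. Of all genes that long, 30.8% had a peak in knockdown 2 and 17.9% in control size3. The knockdown 2 peaks at these members had a false discovery rate of 100%. The control size3 peaks at Bmpr1b and Tgfbr3 had 87.1% and 83.6%. Acvr1, a BMP type I receptor that is mutated in a human disease of ectopic bone formation, had 1 peak in each knockdown library and none in the 3 control libraries. At its transcription start the peaks were at chr2:58566308-58567937 in knockdown 1, with a fold enrichment of 4.49 and 105 reads, and at chr2:58566470-58566958 in knockdown size3, with 11.6 and 11 reads. Their summits lay 755 and 163 bp from the start, and both peaks overlapped the window printed above. Both also overlapped the annotated span of the neighbouring gene Upp2. The knockdown 2 peak lay inside the gene, 73560 bp from the start, with a fold enrichment of 18.6 and 16 reads.

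Bmpr1b, a BMP type I receptor needed for cartilage formation in the digits, is the longest of the 31 genes at 332 kb and had peaks in 4 libraries. Knockdown 1 had 1 peak, at chr3:142168366-142169943 over the upper end (4.07-fold, 108 reads). In knockdown size3 a peak overlapped it, chr3:142169263-142169673, with 9.12 and 12 reads, and 2 more lay inside the gene. The summits at the upper end lay 209 and 104 bp from it, and 105 bp from each other. One of the other knockdown size3 peaks, with a fold enrichment of 11.6 and 13 reads, had its summit 23 bp from an internal start, the one whose window is printed. The third had 14.2 and 16 reads. Knockdown 2 had 2 peaks elsewhere in the gene, with fold enrichments of 18.2 and 22.1 on 9 and 10 reads. Control size3 had 1, with 9.29 and 14 reads, and no knockdown peak overlapped it.

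Tgfbr3, which encodes betaglycan, a co-receptor that presents TGF-beta, was also marked in 4 libraries. It had 1, 1 and 5 peaks in knockdown 1, 2 and size3, and 0, 0 and 1 in control 1, 2 and size3. The fold enrichments were 7.95 in knockdown 1, 18.4 in knockdown 2, 8.10 to 11.9 in knockdown size3 and 6.92 in control size3. None of these 8 peaks overlapped another, so each library marked its own places along the 183 kb of the gene.

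**Figure D4:**
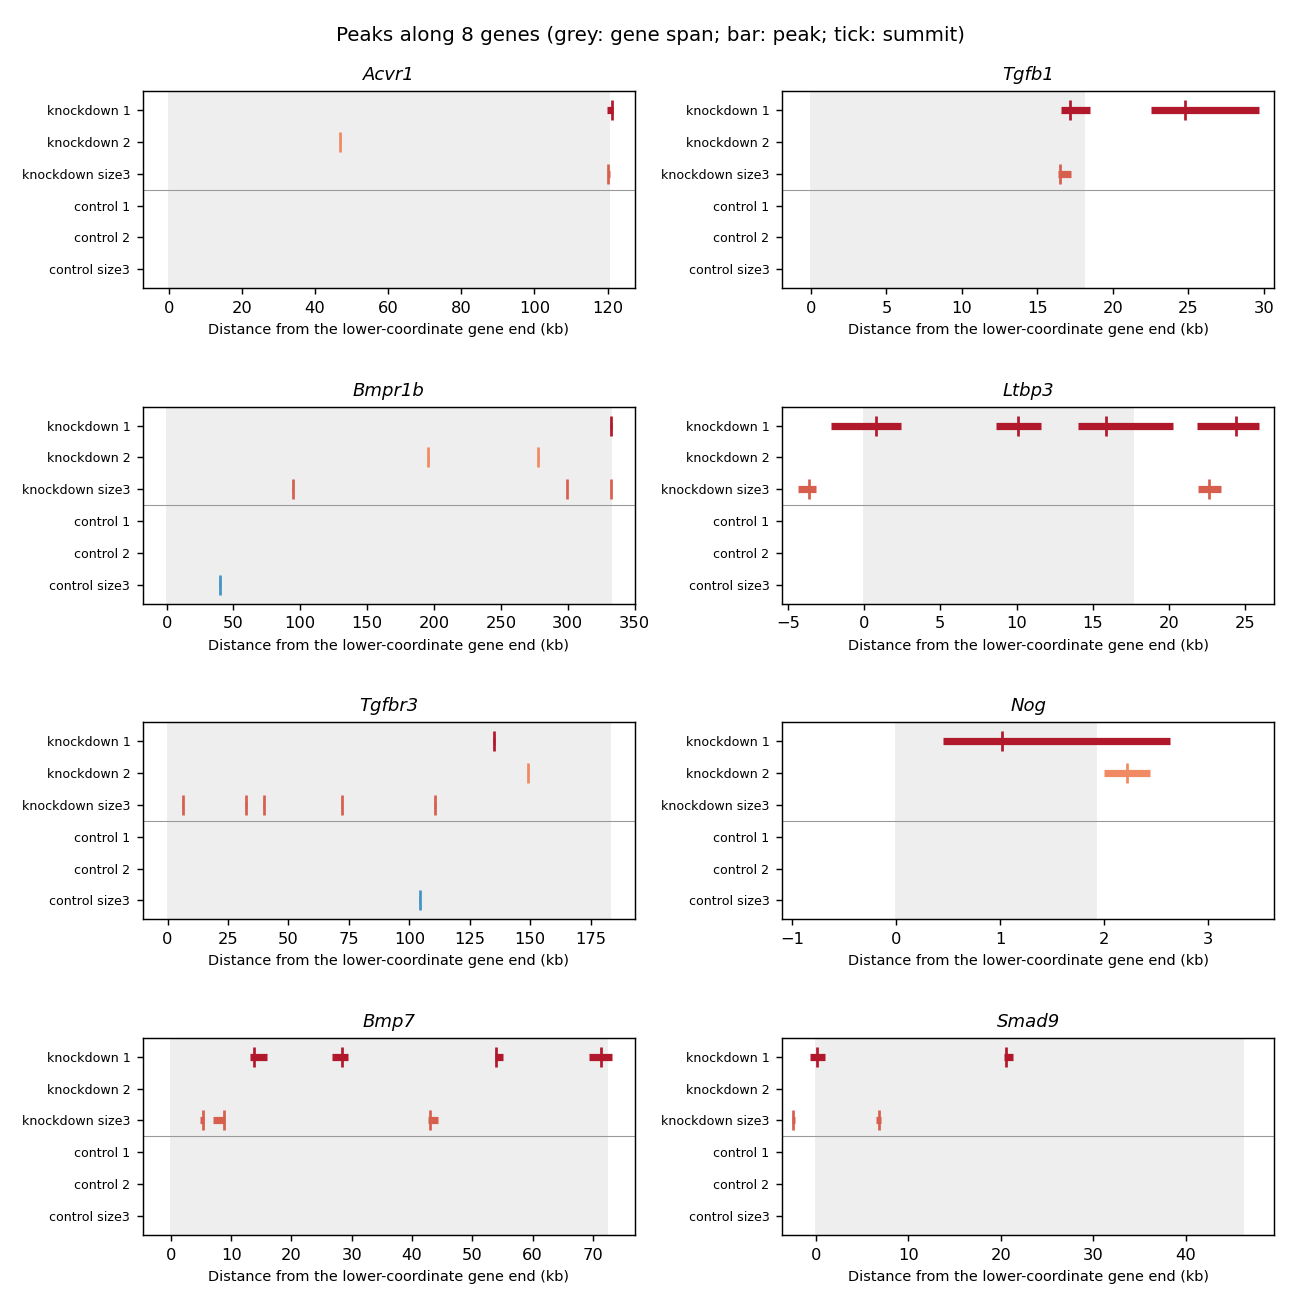
Peaks (bars) and their summits (ticks) in each ChIP library along 8 genes, by distance in kb from the end of the gene with the lower coordinate; the grey field is the gene span. Knockdown 1 and knockdown size3 bars stand over each other at the upper ends of Acvr1, Bmpr1b and Tgfb1 and beyond the upper end of Ltbp3, and those of knockdown 1 and knockdown 2 at Nog, whereas the peaks of Tgfbr3, Bmp7 and Smad9 lie apart.

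Of the other receptors, Acvrl1, a type I receptor of endothelial cells, had 1 peak in knockdown 1 (fold enrichment 3.84, 107 reads) and 2 in knockdown size3 (4.68 and 5.46, 59 and 41 reads). Tgfbr1, the TGF-beta type I receptor, had 2 peaks in knockdown 1 (6.23 and 6.24, 18 and 22 reads) and 1 in knockdown size3 (10.4, 12 reads), 39010 bp apart at the closest. Tgfbr2, the TGF-beta type II receptor, had 1 in knockdown 1 (6.21, 25 reads) and 1 in knockdown size3 (15.0, 24 reads), 65498 bp apart. The knockdown size3 peak, chr9:116099117-116099943, had the highest fold enrichment of any knockdown size3 peak at a member. Knockdown 2 and the control libraries had no peak at these 3 genes.

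Bmpr1a, a BMP type I receptor, had peaks in knockdown 1 only: chr14:34501770-34503562 over its transcription start, with a fold enrichment of 2.56 and 142 reads, and a second deep in the gene with 8.51 and 22 reads. Acvr2b, an activin type II receptor, had 1 peak, in knockdown size3 (12.3, 18 reads). The type II receptor genes Bmpr2 and Acvr2a had no peak in any library.

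Among Smad genes with a promoter window, Smad1 and Smad9, receptor-regulated Smads of the BMP branch, had a knockdown 1 peak at the start. Smad3, Smad5 and Smad6 had no peak on theirs. In knockdown 1, 16.7% of all genes with a window had such a peak, and no other library had one at these Smad windows. Smad2, Smad4 and Smad7 had no window, so their peaks could not be set against a start. Smad1 had its knockdown 1 summit 1 bp from the transcription start (chr8:79398229-79399944, fold enrichment 3.79, 87 reads). The knockdown size3 peak lay 6610 bp away inside the gene, with 11.6 and 12 reads. Smad9 had a knockdown 1 peak with its summit 36 bp from the start (chr3:54754825-54756452, 4.34, 148 reads) and another inside the gene (6.03, 45 reads). Its 2 knockdown size3 peaks, with 7.54 and 5.6 and 14 reads each, flanked that start without overlapping the knockdown 1 peaks. Smad5, the third Smad of this branch, had no peak. Knockdown 2 and the control libraries had no peak at any of the 8 Smad genes. Over all genes the share was 7.95% in knockdown 2 and at most 5.49% in a control library.

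The inhibitory Smad7 had 3 knockdown 1 peaks inside the gene (4.13, 3.89 and 5.94, with 95, 65 and 37 reads) and 1 knockdown size3 peak (9.30, 19 reads) with its summit 667 bp from the upper end. Smad6, the other inhibitory Smad, had 2 peaks in knockdown 1 (5.27 and 3.61, 57 and 60 reads). Of the Smads that carry TGF-beta signals, Smad2 had 2 peaks in knockdown 1. The first spanned the lower end of the gene (3.72, 109 reads) and the second lay in the flank (9.21, 24 reads). Smad3 had 1 knockdown 1 peak, at chr9:63647863-63649176 near the end opposite its start (6.28, 53 reads). Smad4, the common Smad, had 2 peaks, both in knockdown 1. None of the 8 Smad genes had a region called in 2 libraries, beside 8.52% of all protein-coding genes with a knockdown consensus region.

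Nog, which encodes the BMP antagonist noggin, is the shortest member at 1.92 kb. It had a peak in knockdown 1 at chr11:89301089-89303268, with a fold enrichment of 3.37 and 169 reads, and one within that stretch in knockdown 2, chr11:89302635-89303078, with 5.82 and 16 reads. The knockdown 2 peak lay 76 bp beyond the gene and had a false discovery rate of 100%. Knockdown size3 and the control libraries had none. Chrd, which encodes the antagonist chordin, had 2 peaks in knockdown 1 (4.18 and 4.17, 177 and 156 reads), the first over its start and overlapping the neighbouring gene Thpo. Grem1, which encodes the antagonist gremlin, had none in any library.

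Ltbp3 encodes a protein that binds latent TGF-beta in the matrix. It had 4 peaks in knockdown 1, with fold enrichments of 3.52, 3.81, 3.14 and 2.65 and 321, 222, 516 and 254 reads, and 2 in knockdown size3, with 5.69 and 4.93 and 31 and 54 reads. The first knockdown 1 peak, chr19:5738725-5743341, covered the start. The region shared by knockdown 1 and knockdown size3 lay more than 4 kb beyond the gene, so it enters only through the flank. Knockdown 2 and the control libraries had none.

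The window around genes decided few members. Peaks that reached a member only through the flank numbered 9 and lay 76 to 4458 bp from the gene. Of the 5 members without a peak, the nearest peak lay 9615 bp from Smad5, 34314 bp from Bmpr2, 58226 bp from Grem1, 114225 bp from Bmp5 and 445903 bp from Acvr2a.

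In knockdown 1 the member peaks were wider and held more reads than the median peak of the list, while in knockdown 2 and knockdown size3 the medians lay closer. Median width was 1578 bp in knockdown 1, 421 bp in knockdown 2 and 541 bp in knockdown size3, beside 990, 359 and 647 bp over the whole lists. Median fold enrichment was 4.32, 18.4 and 8.40 in knockdown 1, 2 and size3, beside 4.98, 15.6 and 8.10 in the lists. The median member peak held 87 reads in knockdown 1, 12 in knockdown 2 and 16 in knockdown size3, beside 46, 9 and 17 in the lists. These differences were not tested. The peak caller's false discovery rate was at most 5% for 43 of 43 member peaks in knockdown 1, 15 of 25 in knockdown size3 and 0 of 5 in knockdown 2, where each had 100%. Over the whole lists it was 21159 of 21398 peaks in knockdown 1, 10161 of 17592 in knockdown size3 and 51 of 4513 in knockdown 2, so the member counts were near those of their lists. The 2 peaks of control size3, with fold enrichments of 9.29 and 6.92, had rates of 87.1% and 83.6%. At a limit of 5% the knockdown consensus count was 1, the region at Tgfb1. In the shared regions of Acvr1, Bmpr1b and Ltbp3 the knockdown size3 peaks had rates of 5.69%, 5.58% and 5.72%.

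**Figure D5:**
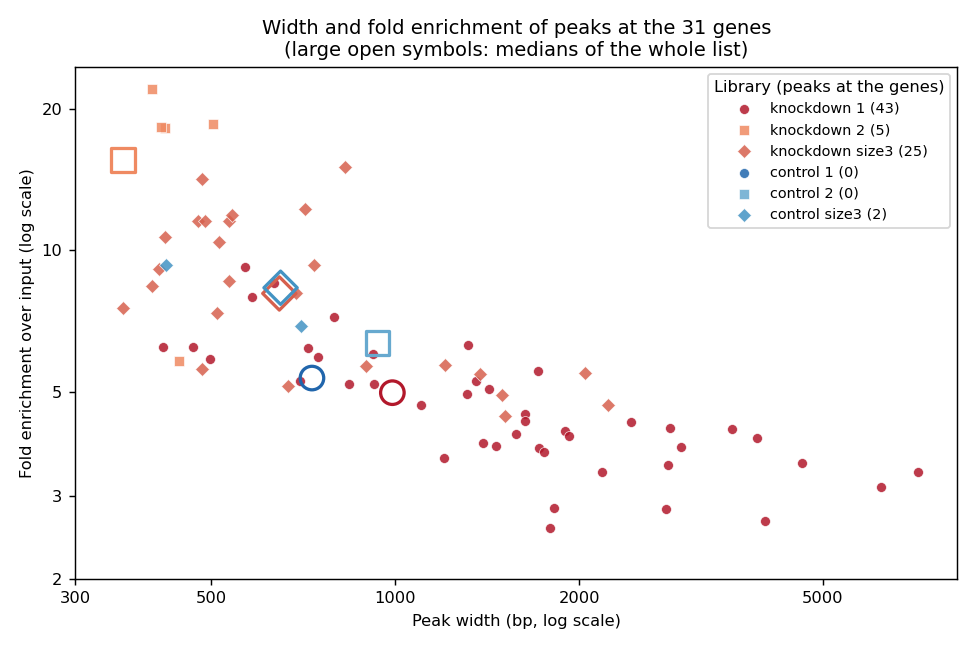
Width (horizontal axis, bp, log scale) and fold enrichment over input (vertical axis, log scale) of each peak at the 31 genes, by ChIP library; large open symbols are the medians of the whole lists. Knockdown 1 peaks are wide with low folds, median 1578 bp and 4.32, and knockdown 2 peaks narrow with high folds, median 421 bp and 18.4.

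Member peaks lay mostly inside genes, as did the peaks of all genes. The summit was within the span for 37 of 43 peaks in knockdown 1, 4 of 5 in knockdown 2, 22 of 25 in knockdown size3 and 2 of 2 in control size3. Over all protein-coding genes the summit was inside for 78.0%, 83.6% and 78.2% of peaks in knockdown 1, 2 and size3, and for 80.6% in control size3. The summit of a member peak lay within 1 kb of either gene end for 20.9% in knockdown 1, beside 21.4% of all peaks at protein-coding genes in that library, and for 12% in knockdown size3, beside 18.6%. In knockdown 2 it was 1 of 5, the peak at Nog, beside 3.27%.

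A further 73 genes of the pathway, listed by name, also had peaks mainly in knockdown 1 and knockdown size3. A peak lay in or near 41, 3 and 33 of them in knockdown 1, 2 and size3, and 1, 0 and 3 in control 1, 2 and size3. These are 56.2%, 4.11% and 45.2% in knockdown and 1.37%, 0% and 4.11% in control libraries, to be read beside the shares of all genes given above. Knockdown consensus regions were present at 7 of the 73 (9.59%, beside 8.52% of all genes), and none of the 8 Smad target genes listed was among them. Gdf6, a BMP-type ligand of joint formation, had the shared region at chr4:9843460-9845744 in knockdown 1 (fold enrichment 5.91) and chr4:9843942-9844834 in knockdown size3 (8.10), and a separate peak in knockdown 2. Bmp1, a protease that cleaves procollagen and chordin, had it at chr14:70519421-70521614 in knockdown 1 (4.69) and chr14:70521158-70521802 in knockdown size3 (5.93). Zfyve9, which encodes a Smad anchor for receptor activation, had folds of 3.41 and 5.73 in knockdown 1 and knockdown size3 in its shared region. Ltbp4, Inha, Nbl1 and Fstl3 also had a region shared by knockdown 1 and knockdown size3. The control peaks at this list were those at Ppm1a in control 1 and at Lefty2, Smurf1 and Tob1 in control size3.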

How the data were processed

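The submitters' processing notes name cutadapt, Bowtie2 and the build GRCm38. MACS 1.4.2 was run by the authors, per the file headers, once per ChIP library and matching input, with p below 1.00e-05 as the limit, band width 300 and at most 1 read at a position. For each peak the deposited lists give counts of reads, a score that is the p-value as negative log10 times 10, the fold enrichment over input as a ratio, and the false discovery rate in percent.

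Titles gave each sample's group and label. Gene spans came from the RefSeq table of GRCm38.p6, in which all 31 members and all 73 further genes matched by symbol, and promoter sequences from RefSeq, which covered 21 members. Bmp2, Bmp3, Bmp7, Acvrl1, Smad2, Smad4, Smad7, Tgfb3, Tgfbr3 and Nog had no window in this table. Peaks of all lists were merged where they touched. Members with a peak, peaks at members as log2(number + 1), and peaks at members per 1000 peaks were tested by an exact permutation of the 3 knockdown and 3 control libraries, two-sided, adjusted by the Benjamini-Hochberg method over 3 tests. Wilson intervals and limits for 0, taken as 3 peaks of the list, cover counting error only. Overlap, merging and permutation were tested on simulated data with bedtools as comparison. Python 3.11.15, pandas 2.3.3, numpy 2.4.6 and scipy 1.17.1 were used.

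The members and lists were chosen with earlier results of these data known. By rule, members with a consensus region or peaks in at least 2 libraries were described peak by peak, with at most 3 further members of a class by best fold enrichment, further pathway genes with a consensus region, and promoter windows under a peak. Alternatives covered the window, peak threshold, list length, overlap, summary, replicate block, consensus rule and each library left out.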

Additional observations from a re-analysis of the deposited data

How the results depend on the processing

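The difference in members with a peak, in peaks at members and in their share kept its direction under every alternative run, at exact permutation p-values of 0.1 to 1, and none passed 0.05. Every knockdown list was longer than every control list, so where lists kept their lengths the counts could hardly reverse. For the share, control 1 and control 2 held 0 member peaks, in lists too short to detect the knockdown shares. With 3 against 3 libraries the smallest p is 0.1. With peaks at a false discovery rate of at most 5%, p was 0.4 for members and for peaks. The share was not computed because the lists of control 2 and control size3 were then empty. Control 1 then held 1 peak, so the direction could hardly reverse in this alternative. At equal list lengths p was 1 for each, and the direction there rested on the single peak at Tgfbr2 in knockdown size3. Leaving out each library gave differences of 8.33 to 18.8 members, 3.11 to 4.55 on the log2 scale and 0.961 to 1.51 per 1000 peaks, and 0 to 5 members with a knockdown consensus region. That number was 1 at a false discovery rate of at most 5%, and 0 with a score of at least 100, at equal list lengths and when all 3 libraries were required. It was 4 to 6 with the other windows and overlaps. The count in control was 0 throughout. Within label 1, values chosen after seeing the data were 25 members, 5.46 on the log2 scale and 2.01 per 1000 peaks, and within size3 the share was 0.51 per 1000. The cause of these shifts was not tested, except that shorter lists hold fewer peaks by construction.

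The replicate block, sign flips within labels 1, 2 and size3, gave the same differences of 13.7 members, 3.72 and 1.21 with exact p = 0.25, the smallest it allows. Same-labelled libraries deviated from their group means over 12845 genes with correlations of -0.04, 0.07 and 0.09. Not every library correlated best with its own label. Control 1 and control 2 had peaks at only 1.38% and 0.315% of all genes, so this check could hardly reveal a pairing. The labels do not say whether same-labelled libraries share a culture, and they were not taken to pair the libraries.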
